A study of Mus musculus with 6 samples.

Results

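The genes described here are 33 genes of the ATF4 programme: its transcription factors and feedback regulators, enzymes that make serine, glycine, asparagine, proline and alanine, amino acid transporters, and cytosolic aminoacyl-tRNA synthetases. They were found by gene symbol in the array annotation, with the brightest probe set standing for each gene, and 32 of the 33 had a probe set, out of 18193 genes in all. No probe set carried the symbol Pycr1 alone. Of these 32 genes, 31 reached the level filter (the median of all probe sets), each with both group means above it, and Slc7a11 did not.

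RNA came from primary aortic endothelial cell cultures of C57 mice, 3 of non-transgenic mice and 3 of mice carrying a transgene for dominant negative human PPARG (V290M) driven by the endothelial CDH5 promoter. The cultures received no treatment, and the labels used here give no age for the mice. Each culture pooled the cells of 2 mice (10 mice and 5 cultures per group), and the amplified RNA of 3 of them was hybridised, 1 Affymetrix array per culture, which makes n = 3 separate cultures of pooled animals in each group. Whether the cultured cells expressed the transgene is not shown by these values.

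ATF4 is the transcription factor of the integrated stress response. When amino acids run short or unfolded protein builds up, kinases phosphorylate the initiation factor eIF2, most translation slows, and the Atf4 message is translated more. ATF4 then pairs with C/EBP family partners and switches on genes that make, import and charge amino acids. Growth signals through mTORC1 also act through ATF4, and serine synthesis by Phgdh is known to be needed for endothelial cell growth. Because ATF4 is set largely at translation, its RNA level is not its activity.

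ATF4 and its C/EBP partners bind the C/EBP-ATF response element, whose core was searched here as TGATGNAA on both strands (TTNCATCA when read on the other strand). The windows, from RefSeq on build GRCm38.p6, ran from 250 bases before to 50 bases after each annotated start, and 28 of the 32 genes had 1 or more, 33 windows in all. The core stood in the windows of 10 of the 28 genes (35.7%), against 4.51% of 27025 genes in the whole table. These genes are in the group because ATF4 is known to act on them, so the share is a description. Matches are shown because they mark which members carry the factor's known site near the start. Each sequence is written 5′ to 3′ on the gene's strand with the core in capitals.

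Asns (chr6:7693210-7693309, minus strand): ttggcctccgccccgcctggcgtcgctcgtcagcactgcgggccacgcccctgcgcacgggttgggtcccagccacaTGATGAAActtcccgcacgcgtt
Chac1 (chr2:119351038-119351067, plus strand): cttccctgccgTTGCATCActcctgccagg
Nupr1 (chr7:126625562-126625591, minus strand): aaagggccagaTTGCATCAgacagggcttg
Atf3 (chr1:191183425-191183454, minus strand): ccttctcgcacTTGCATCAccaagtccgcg
Trib3 (chr2:152344028-152344057, minus strand): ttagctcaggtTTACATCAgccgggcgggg
Gars (chr6:55037960-55037989, plus strand): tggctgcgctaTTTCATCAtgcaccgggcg
Tars (chr15:11399655-11399684, minus strand): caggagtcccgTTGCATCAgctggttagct
Iars (chr13:49682126-49682155, plus strand): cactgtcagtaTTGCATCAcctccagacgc
Slc7a11 (chr3:50443651-50443680, minus strand): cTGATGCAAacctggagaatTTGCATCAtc

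The Asns stretch covers the 100 bases before the start and the others 30 bases. The core began at position -23 in Asns, -30 in Gars, -15 in Tars, -110 in both Nupr1 and Atf3, and -193 in Chac1. It lay just after the start in Trib3 (position 15) and Iars (8), and Slc7a11 held 2 copies in opposite orientation, at -66 and -47. The element read by PPARG with its partner RXR, searched on both strands as the hexamer AGGTCA repeated exactly after 1 base, was in 0 of the 28 genes' windows and in 0.048% of genes in the table. No match says only that these letters are not in this window.

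Transgenic replicate 3 resembled the non-transgenic arrays more than its own group. Over the 11208 tested genes its rank correlation averaged 0.972 with the former and 0.907 with transgenic replicates 1 and 2. For that reason the members' differences are also given without it, on 2 against 3 cultures. That choice rests on these same values, so larger differences and smaller adjusted p values without it follow in part from the choice. They are no independent support. The size of the difference grew without it for 28 of the 31 tested members. The median signal was 219.9 to 222.9 on the non-transgenic and 173 to 186.1 on the transgenic arrays. Gapdh control signal from the 3' end, divided by that from the 5' end, is used as a sign of how intact the RNA is. It was 1.51 to 1.71 in the non-transgenic and 1.20 to 1.44 in the transgenic group. These do not overlap (two-sided exact permutation p = 0.1, which is as low as 3 against 3 can go), so this ratio and the genotype cannot be told apart. The same ratio for the actin control was 1.74, 1.40 and 2.21 on the arrays of transgenic replicates 1, 2 and 3, beside 1.83 to 2.17 for the other group (two-sided exact permutation p = 0.5). Replicate 3 was the highest of the 6 arrays and the groups overlapped. Of 19 endothelial markers 8 reached the filter on average, namely Flt1, Tek, Eng, Cd34, Emcn, Egfl7, Ramp2 and Ptprb. Among the rest, Cdh5, Pecam1 and Nos3 lay under it in both groups. All 14 of 14 fibroblast markers reached it on average, as did 7 of 10 smooth muscle markers and 5 of 9 mesothelial and epithelial markers. Of 20 leukocyte and macrophage markers, 4 to 5 reached it on each array but 12 in transgenic replicate 2, and adipocyte markers 5 to 6 of 8 in the non-transgenic cultures against 3, 2 and 6 in the transgenic ones. The part of these differences in the results below was not tested, and in such bulk RNA fewer cells of a type and less RNA per cell cannot be told apart. Interferon response genes, among which Wars is often counted, had a median log2 difference of -0.16 over 14 tested genes, and -0.47 without transgenic replicate 3.

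The comparison asked how RNA levels of these genes differ between cultures of transgenic and non-transgenic mice. Most of the enzymes and synthetases lay higher in the transgenic cultures, the transporters did not share a direction, and no member passed the test with all 6 arrays. Of the 31 tested members, 24 lay higher and 7 lower, where 47.5% of all tested genes lay higher and 52.5% lower. The median log2 difference (transgenic minus non-transgenic, on levels of log2(signal + 16), which understates changes of dim genes) was 0.33 for the members and -0.02 for all genes, and 0.42 and -0.06 without transgenic replicate 3. All 3 transgenic cultures lay above all 3 non-transgenic ones for 9 members (29%), where this held for 9.39% of all tested genes, and below them for 1 member, where this held for 6.72%. An unadjusted p under 0.05 was found for 7 members in the higher and 1 in the lower direction, against 6.47% and 5.02% of all genes. At a threshold of 0.05 on Benjamini-Hochberg adjusted p, limma called none of the members and 0 of 11208 genes (lowest adjusted p = 0.428), and 1288 genes had an unadjusted p under 0.05. Without transgenic replicate 3, limma called 9 of the 31 members, 7 higher and 2 lower, where 6.88% of all genes were called higher and 7.83% lower.

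**Figure D1:**
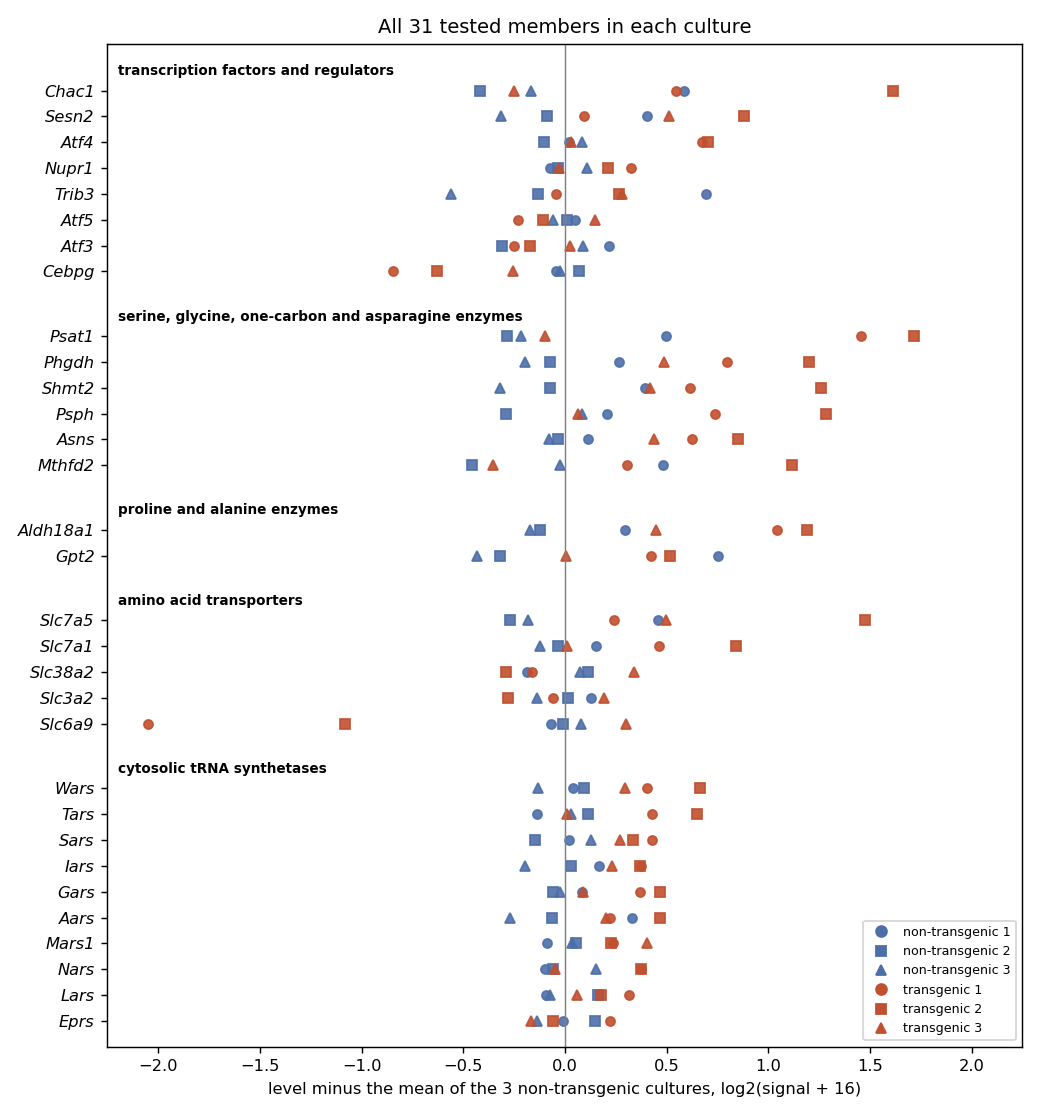
Level of each of the 31 tested members in each culture, minus the mean of the 3 non-transgenic cultures, on the log2(signal + 16) scale; blue symbols are non-transgenic and red symbols transgenic cultures, and the symbol gives the replicate number. Transgenic replicates 1 and 2 lie far to the right for the serine enzymes and Aldh18a1 and far to the left for Slc6a9, while transgenic replicate 3 (red triangles) lies closer to the non-transgenic cultures.

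Transcription factors and feedback regulators were divided, with 5 of 8 higher and 3 lower, Cebpg and Atf4 having the smallest unadjusted limma p. Of the lower ones, Atf3 turned to the higher side with quantile normalization, and Atf3 and Atf5 did so with arrays scaled to the same median. Atf4, the factor itself, was at 13.48, 13.36 and 13.55 in the non-transgenic and at 14.14, 14.17 and 13.49 in the transgenic cultures. Transgenic replicates 1 and 2 were high and replicate 3 lay among the non-transgenic cultures. The log2 difference was 0.47 ± 0.19 (SE, n = 3 per group, limma adjusted p = 0.428), a 1.39-fold level, and it was 0.69 ± 0.11 without transgenic replicate 3 (limma adjusted p = 0.0102). On the next brightest of its 3 probe sets all 3 transgenic cultures lay above the non-transgenic ones. Cebpg, a C/EBP family protein that dimerises with ATF4, was at 11.62, 11.73 and 11.64 in the non-transgenic and at 10.82, 11.03 and 11.41 in the transgenic cultures. It was the 1 member whose transgenic cultures all lay below every non-transgenic culture. It differed by -0.58 ± 0.21 (SE, limma adjusted p = 0.428) and -0.74 ± 0.18 without transgenic replicate 3 (limma adjusted p = 0.0321). Its probe sets disagreed. The second was nearly as bright (mean of 11.33 over the arrays, against 11.38) and differed by 0.17, and the third by -0.43.

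The groups overlapped for each of the other 6 regulators. Chac1, which degrades glutathione, had group means of 8.63 and 9.27 and a log2 difference of 0.64 ± 0.50 (SE), with transgenic replicate 2 at 10.24 and replicate 3 at 8.38. Its difference was 0.15 without transgenic replicate 2 and 1.08 without transgenic replicate 3. Sesn2, a leucine sensor that restrains mTORC1, had means of 9.55 and 10.05 and differed by 0.50 ± 0.31, but its other probe set showed no shift (0.0008). Trib3, a pseudokinase that feeds back on ATF4, had means of 8.94 and 9.11 and differed by 0.17 ± 0.36. The chromatin-associated stress protein Nupr1 had means of 14.16 and 14.33 and differed by 0.17 ± 0.12. Atf5, a factor that ATF4 induces, had means of 13.96 and 13.90 and differed by -0.06 ± 0.13. The early stress factor Atf3 had means of 8.46 and 8.33 and differed by -0.13 ± 0.28. Without transgenic replicate 3 the differences were 0.49 for Sesn2, 0.11 for Trib3, 0.27 for Nupr1, -0.17 for Atf5 and -0.21 for Atf3, none of them called, and Sesn2 was at 0.30 without transgenic replicate 2. Outside the members, Ddit3, which encodes CHOP, and Eif2ak3, which encodes PERK, lay at log2 differences of -0.05 ± 0.20 and -0.29 ± 0.20. They were picked as landmarks of the pathway after their values were seen. Of the 31 other tested genes of the pathway, which include these, 18 lay higher and 13 lower.

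Enzymes of serine, glycine, one-carbon and asparagine synthesis lay higher in 6 of 6, with a median log2 difference of 0.73, and 0.97 without transgenic replicate 3. In 3 of them, Asns, Phgdh and Shmt2, every transgenic culture lay above every non-transgenic one, against 9.39% of all tested genes. Asns, which makes asparagine from aspartate and glutamine and carries the element printed above, was at 12.98, 12.83 and 12.79 in the non-transgenic and at 13.49, 13.72 and 13.30 in the transgenic cultures. Even transgenic replicate 3 was 0.44 above the non-transgenic mean. The log2 difference was 0.64 ± 0.15 (SE, n = 3 per group, limma adjusted p = 0.428), a 1.56-fold level and the smallest unadjusted p among the members (0.00267), 29th in order among all genes. Without transgenic replicate 3 it was 0.74 ± 0.14 (limma adjusted p = 0.0142). Phgdh, the first enzyme of serine synthesis from glycolysis, was at 12.87, 12.53 and 12.40 against 13.40, 13.80 and 13.09. The groups did not overlap on any of its 4 probe sets, which differed by 0.83 to 1.49. The brightest gave a log2 difference of 0.83 ± 0.21 (SE, limma adjusted p = 0.428), a 1.78-fold level, and 0.998 ± 0.189 without transgenic replicate 3 (limma adjusted p = 0.0147). A further 2 probe sets listed Phgdh beside another gene and were not used, so copies of this gene may share signal with it.

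Psat1, the second enzyme of serine synthesis, had the largest difference of the members and is given by culture for that reason, chosen after its values were seen. It was at 13.07, 12.28 and 12.35 in the non-transgenic and at 14.02, 14.28 and 12.47 in the transgenic cultures. Replicate 3 of the transgenic cultures fell within the non-transgenic values, while the other 2 lay well above them. With all arrays it differed by 1.03 ± 0.46 (SE, limma adjusted p = 0.439), 1.59 ± 0.24 without transgenic replicate 3 (limma adjusted p = 0.00771) and 0.68 without transgenic replicate 2. Psph, which completes serine synthesis, had means of 11.19 and 11.88, a difference of 0.69 ± 0.32, and 1.01 ± 0.24 without transgenic replicate 3 (limma adjusted p = 0.029), but 0.40 without transgenic replicate 2. Shmt2, the mitochondrial enzyme that splits serine into glycine and a one-carbon unit, was at 10.80, 10.34 and 10.09 against 11.03, 11.67 and 10.83. On this brightest probe set its groups did not overlap, though transgenic replicate 3 exceeded the highest non-transgenic culture by little. Only 2 of its 4 probe sets showed no overlap. Shmt2 differed by 0.76 ± 0.30 (SE, limma adjusted p = 0.428) while without transgenic replicate 3 the value was 0.94 ± 0.29 (limma adjusted p = 0.0661). Mthfd2, which passes the one-carbon unit on in the mitochondrion, had means of 11.56 and 11.91 and differed by 0.36 ± 0.39, by -0.02 without transgenic replicate 2 and by 0.71 without transgenic replicate 3. Both of its probe sets overlapped between the groups.

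**Figure D2:**
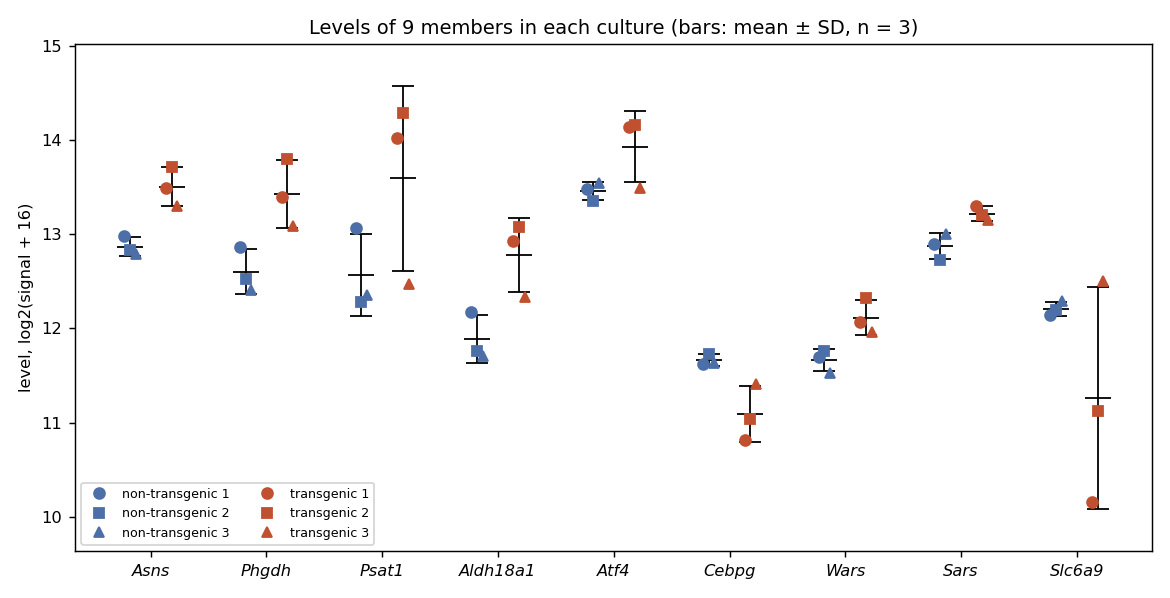
Levels of 9 members on the log2(signal + 16) scale in each of the 6 cultures, with the mean ± SD (n = 3) of each group. The groups are apart for Asns, Phgdh, Aldh18a1, Wars and Sars (transgenic higher) and for Cebpg (transgenic lower), and transgenic replicate 3 lies among the non-transgenic cultures for Psat1 and Atf4 and above them for Slc6a9.

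For proline and alanine synthesis, both tested enzymes lay higher and Aldh18a1 stood out. Aldh18a1, which starts proline synthesis from glutamate, was at 12.18, 11.76 and 11.71 in the non-transgenic and at 12.93, 13.07 and 12.33 in the transgenic cultures. All 3 transgenic cultures were higher, replicate 3 by the least. The log2 difference was 0.89 ± 0.24 (SE, n = 3 per group, limma adjusted p = 0.428), a 1.86-fold level, and 1.12 ± 0.19 without transgenic replicate 3 (limma adjusted p = 0.0106). Its 5 probe sets differed by 0.72 to 1.46, and the groups did not overlap on 4 of them. Gpt2, which makes alanine in the mitochondrion, was at 13.92, 12.85 and 12.74 against 13.59, 13.68 and 13.18. Non-transgenic replicate 1 was the highest of all, and the difference of 0.32 ± 0.31 (SE, limma adjusted p = 0.683) was no larger than the spread. Leaving out that culture gave 0.69, leaving out non-transgenic replicate 3 gave 0.0983, and leaving out transgenic replicate 3 gave 0.47.

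Amino acid transporters shared no direction: 2 of 5 tested lay higher and 3 lower, of which Slc3a2 and Slc38a2 turned to the higher side with arrays scaled to the same median. Slc7a1, the arginine and lysine carrier, was at 13.24, 13.06 and 12.97 in the non-transgenic and at 13.55, 13.93 and 13.10 in the transgenic cultures. Transgenic replicate 3 lay among the non-transgenic cultures. It differed by 0.44 ± 0.21 (SE, limma adjusted p = 0.449), and 0.65 ± 0.16 without transgenic replicate 3 (limma adjusted p = 0.0312), but 0.24 without transgenic replicate 2. Slc7a5, the light chain of the LAT1 carrier for leucine and other large amino acids, was at 11.38, 10.65 and 10.74 against 11.17, 12.40 and 11.42. The high value was that of transgenic replicate 2 and the groups overlapped, with a difference of 0.74 ± 0.36 (SE, limma adjusted p = 0.449), 0.37 without that culture and 0.86 without transgenic replicate 3. Slc3a2, the heavy chain that LAT1 needs, had means of 13.08 and 13.03, a difference of -0.05 ± 0.16. Slc38a2, the glutamine and alanine carrier SNAT2, had means of 12.85 and 12.81, a difference of -0.04 ± 0.20. Without transgenic replicate 3, Slc3a2 and Slc38a2 were at -0.17 and -0.22. The dimmer probe sets of Slc38a2 differed by -0.82 and -0.19, and the groups overlapped on both.

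Slc6a9, the glycine transporter GLYT1, had the largest difference in the lower direction and is given by culture for that reason, chosen after its values were seen. It was at 12.14, 12.20 and 12.29 in the non-transgenic and at 10.16, 11.13 and 12.51 in the transgenic cultures. The non-transgenic cultures lay close together, transgenic replicates 1 and 2 far below them and replicate 3 above them. Its log2 difference was -0.94 ± 0.51 (SE, limma adjusted p = 0.48) with all arrays, -1.57 ± 0.28 without transgenic replicate 3 (limma adjusted p = 0.0124) and -0.39 without transgenic replicate 1. The dimmer of its 2 probe sets differed by -0.31. Slc7a11, the cystine carrier of glutathione synthesis, lay under the filter with means of 6.70 and 6.69 and had no test. Its transgenic cultures were spread from 5.35 in replicate 3 to 7.57 in replicate 2.

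Cytosolic aminoacyl-tRNA synthetases, which join each amino acid to its tRNA, lay higher in 9 of 10, by small amounts, with a median log2 difference of 0.30, and 0.37 without transgenic replicate 3. The 10th, Eprs, had the same mean in both groups, 12.30, and its sign turned with the setting. In 5 of them, Wars, Sars, Gars, Iars and Mars1, all 3 transgenic cultures lay above all 3 non-transgenic ones, against 9.39% of all tested genes. The spread within groups was small here: the median SD of single synthetases within groups was 0.15, against 0.29 over all tested genes, and 0 of 10 exceeded that. Wars, the tryptophan enzyme, was at 11.70, 11.76 and 11.53 in the non-transgenic and at 12.06, 12.32 and 11.96 in the transgenic cultures. The groups were apart on all 4 of its probe sets, which differed by 0.27 to 0.64. The log2 difference was 0.45 ± 0.17 (SE, n = 3 per group, limma adjusted p = 0.428), a 1.37-fold level, and 0.53 without transgenic replicate 3 (limma adjusted p = 0.0763). Sars, the serine enzyme, was at 12.89, 12.73 and 13.00 against 13.30, 13.21 and 13.15. Here the transgenic cultures agreed closely, replicate 3 included, and the second probe set was apart as well. Sars differed by 0.34 ± 0.13 (SE, limma adjusted p = 0.428), a 1.27-fold level, while the value without transgenic replicate 3 was 0.38 (limma adjusted p = 0.103).

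The remaining synthetases differed by 0.36 or less. Gars (glycine) had group means of 13.16 and 13.47 and a difference of 0.31 ± 0.14 (SE), although transgenic replicate 3, at 13.25, equalled the highest non-transgenic culture to 2 decimals. Iars (isoleucine) had means of 12.46 and 12.79, a difference of 0.33 ± 0.15, and its groups were apart on both probe sets. Mars1 (methionine) had means of 12.22 and 12.51, a difference of 0.29 ± 0.14, and was highest in transgenic replicate 3 at 12.62. Tars (threonine) had means of 11.49 and 11.85 and differed by 0.36 ± 0.21. Transgenic replicate 3 lay inside its non-transgenic range. Nars (asparagine) had means of 13.23 and 13.46 and differed by 0.23 ± 0.16, and its dimmer probe set, at 0.55, showed no overlap. Aars (alanine) had means of 11.61 and 11.91 and differed by 0.30 ± 0.21, its dimmer probe set showing no overlap at 0.48. Lars (leucine) had means of 12.29 and 12.47 and differed by 0.18 ± 0.16. Eprs, which charges both glutamate and proline, was equal in both groups. Without transgenic replicate 3 the differences were 0.42 for Gars, 0.37 for Iars, 0.23 for Mars1, 0.54 for Tars, 0.37 for Nars, 0.35 for Aars, 0.24 for Lars and 0.0833 for Eprs. Tars was at 0.22 without transgenic replicate 2, and Aars at 0.16 without non-transgenic replicate 3. No synthetase of the 10 was called without transgenic replicate 3, where the smallest limma adjusted p among them was 0.0555, that of Gars.

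**Figure D3:**
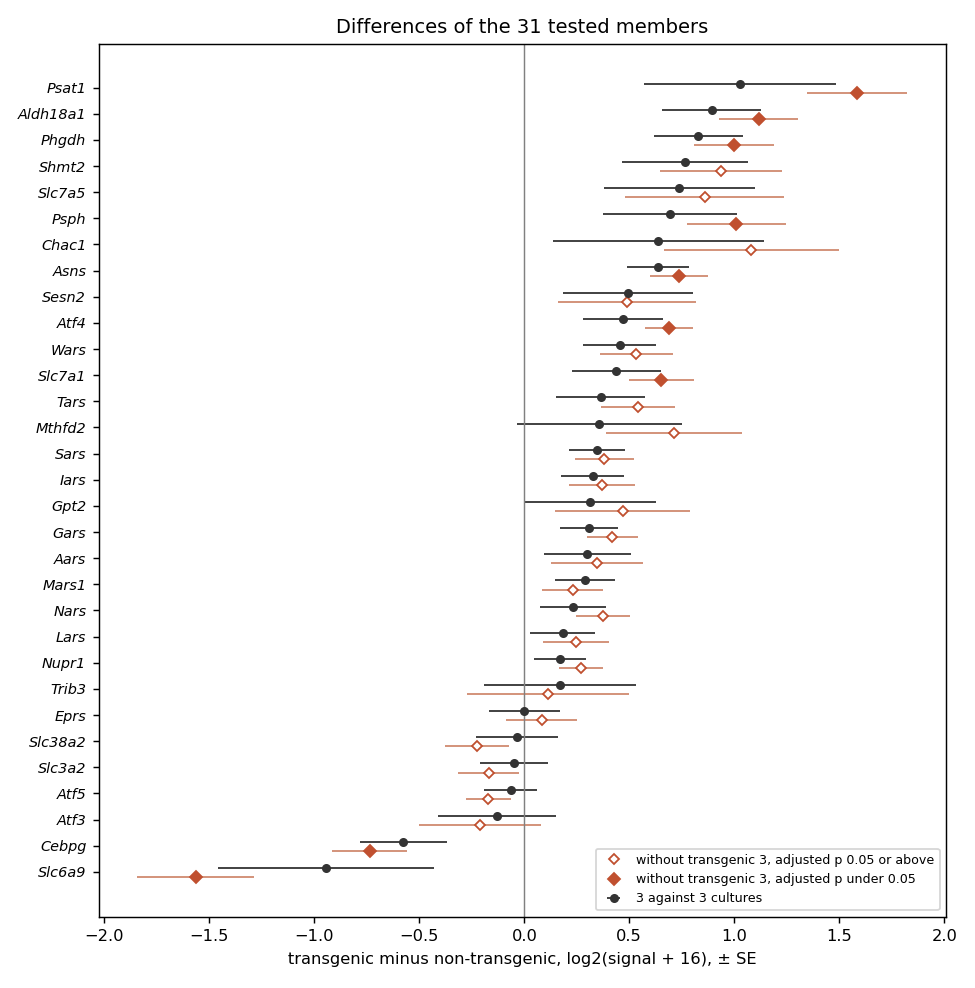
Log2 difference (transgenic minus non-transgenic, ± SE) of the 31 tested members with all 6 cultures (black) and without transgenic replicate 3 (red diamonds, filled where limma's adjusted p is under 0.05). Filled diamonds mark Psat1, Aldh18a1, Phgdh, Psph, Asns, Atf4 and Slc7a1 on the higher side and Cebpg and Slc6a9 on the lower side.

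Cytosolic synthetases and scaffold proteins outside the 10 members lay higher in 12 of 12 tested, with a median log2 difference of 0.39 (0.51 without transgenic replicate 3). All transgenic cultures lay above all non-transgenic ones for 6 of the 12, against 9.39% of all tested genes. Cars, the cysteine enzyme, was at 9.48, 9.65 and 9.54 in the non-transgenic and at 11.01, 11.31 and 10.15 in the transgenic cultures. The groups were wide apart, with a log2 difference of 1.27 ± 0.32 (SE, limma adjusted p = 0.428), a 2.40-fold level, and 1.60 without transgenic replicate 3 (limma adjusted p = 0.006). Farsb, the beta chain of the phenylalanine enzyme, differed by 0.59 ± 0.17 and also had no overlap. Mitochondrial synthetases, which charge tRNA for the mitochondrial ribosome, lay higher in 14 of 16 with a median of 0.13 (0.0848 without transgenic replicate 3). The transgenic cultures were all higher for 1 of the 16, Ears2 at 0.45 ± 0.27, where the share of all tested genes was 9.39%. Set against the non-transgenic mean, their average over the list lay at 0.18, -0.14 and 0.37 for transgenic replicates 1, 2 and 3, while that of the 10 cytosolic members was 0.34, 0.37 and 0.14. Replicates 2 and 3 thus stand in opposite order on the cytosolic and mitochondrial enzymes. The difference between the lists was not tested.

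Of 31 other tested genes of the ATF4 pathway, among them eIF2 kinases, further transporters and one-carbon enzymes, 18 lay higher and 13 lower, with a median of 0.15, and 0 were called with all arrays. The smallest unadjusted p belonged to Mthfd1, the cytosolic one-carbon enzyme, at 0.50 ± 0.18, and Got1, an aspartate aminotransferase, at 0.80 ± 0.32, both with no overlap between groups. Without transgenic replicate 3, limma called 4 of the 31 higher and 2 lower, where 6.88% and 7.83% of all genes were called, and the median was 0.21. Genes of the other unfolded protein branches, XBP1 and ATF6, lay higher in 11 of 17 with a median of 0.20, and 0.29 without that culture. All transgenic cultures lay above all non-transgenic ones for 3 of the 17, against 9.39% of all tested genes. Leaving out that culture, limma called 6 of the 17 higher and 0 lower, beside the same 6.88% and 7.83% of all genes.

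The values of each culture on the members and on cell cycle genes are given side by side, with no test of their relation. On the 6 serine, glycine, one-carbon and asparagine enzymes the list mean was 0.76, 1.24 and 0.16 in transgenic replicates 1, 2 and 3, and 0.33, -0.20 and -0.12 in the non-transgenic cultures. On 23 tested cell cycle genes it was 1.70, 2.15 and -0.11, against 0.55, -0.23 and -0.33. Transgenic replicate 2 was highest and non-transgenic replicate 1 the highest of its group on both. This also held for the regulators and for the proline and alanine enzymes, but not for the other roles. On the transporters transgenic replicate 3 was highest, at 0.27 against 0.13 for replicate 2. On the member synthetases non-transgenic replicate 1, at 0.0214, lay under replicate 2, at 0.0274. Non-transgenic replicate 1 was the highest non-transgenic culture for 19 of the 31 members, against 43.2% of all tested genes. Transgenic replicate 2 was the highest of all 6 cultures for 16 of the 31, against 21.3%. Transgenic replicate 3 lay above all non-transgenic cultures for 15 of 31 members, where this held for 38.4% of all tested genes. For replicates 1 and 2 the numbers were 18 and 22, beside 33.9% and 31.9%.

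**Figure D4:**
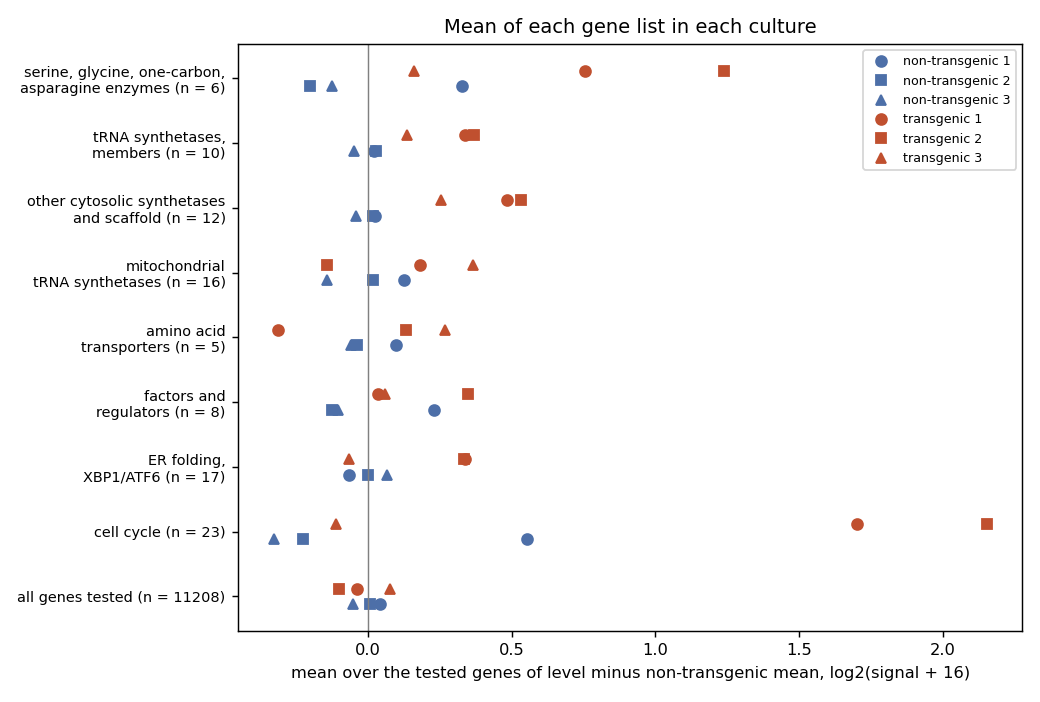
Mean over the tested genes of each list of the level minus the non-transgenic mean, on the log2(signal + 16) scale, for each culture; n is the number of genes. The cytosolic synthetases, members and others, have all 3 transgenic cultures to the right of the non-transgenic ones, while on the serine enzymes and cell cycle genes transgenic replicate 3 lies among the non-transgenic cultures.

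Probe sets of the same gene gave a further view of the same RNA. The 32 genes had 71 probe sets, of which 66 reached the filter, and 25 of these had all transgenic cultures above all non-transgenic ones (37.9%), from 12 genes. This held for 8.3% of all 22519 probe sets at or above the filter. Phgdh, Wars and Aldh18a1 gave 4 of the 25 each, so the share counts some genes several times and its probe sets are not independent. Among 35 dimmer probe sets above the filter, 33 had the sign of the brightest, the exceptions being 1 each of Cebpg and Eprs. The brightest probe sets of Atf4, Trib3, Asns, Phgdh, Shmt2, Aldh18a1 and Wars are of a type in which some probes may also bind related transcripts. Whether those of the other members, Psat1 included, bind only their own gene was not checked. The 9 tested members with the response element core in their window had a median log2 difference of 0.31, with 8 higher and 3 without overlap, and the 18 with a window but no match had a median of 0.35, with 12 higher and 5 without overlap.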

How the data were processed

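Affymetrix mouse genome arrays measured the RNA of 6 cultures after amplification of about 50 ng of total RNA, per the labels' protocols. The authors deposited 1 linear intensity per probe set and array, and the submitters' processing notes name MAS5 without a version. Each array's trimmed mean was near 1500, so the deposited scaling was kept. The table held 45101 probe sets, of which the array annotation gave 34945 a single gene and 932 several (left unnamed), while 9160 had no gene listed.

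Levels are log2(signal + 16). The brightest probe set stood for a gene, and 11208 genes with a mean of at least 7.717 were tested two-sided with limma 3.58.1 in R 4.3.3 (lmFit, eBayes with trend, Benjamini-Hochberg adjustment over all of them). Figures used matplotlib 3.10.9. The number of arrays limits the precision. The members and gene lists were chosen with earlier results of these data known. Every member is named, with values by culture for Atf4, the 2 members of each role with the smallest p, and those with an unadjusted p under 0.05. On simulated data for 11208 genes with 3 against 3 arrays, 24% of genes changed 2-fold and 81% of genes changed 4-fold were recovered. The simulated noise was independent between genes and equal in both groups, with no outlying array, so these shares need not hold for the arrays used here. The alternatives changed the pseudocount, filter, scaling, variance prior, array weights or probe set summary, added a replicate block, or left out 1 array. Sequences came from RefSeq, GRCm38.p6, matched by symbol, and the stretches of 1 gene are not reported here.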

Additional observations from a re-analysis of the deposited data

How the results depend on the processing

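The count of called members was 0 of 31, and of called genes 0 of 11208, with pseudocounts of 1 and 64, without a filter or with it at the 75th percentile, with quantile normalization, median scaling, no variance trend and the mean of all probe sets. With estimated array weights limma called 5504 genes, 22 of them members (19 higher and 3 lower). That fit rested mostly on transgenic replicate 1 and non-transgenic replicate 2. With 1 array left out the counts ran from 0 to 1649 genes and from 0 to 9 members, and they were above 0 only without transgenic replicate 3. The cause was not tested. With the replicate number as a block 0 genes and 0 members were called and the members' median was 0.33, as without it. The labels state no pairing of the cultures. Deviations of same-numbered cultures correlated at 0.04, -0.28 and -0.03, and those of differently numbered ones at -0.159 to 0.305. With 3 cultures per group these values cannot decide whether the numbers pair the cultures.

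The members' median difference was 0.22 to 0.46 with 1 array left out. It was 0.61 with arrays scaled to the same median, a setting that moved the median of all genes to 0.27. The members' median less that of all genes was 0.35 there and in the main setting. With median scaling Atf3 was at 0.14, Atf5 at 0.23, Slc3a2 at 0.24, Slc38a2 at 0.25 and Eprs at 0.29. With quantile normalization Atf3 was at 0.0884, and with array weights Eprs was at 0.11. With 1 array left out, the range was -0.17 to 0.065 for Slc3a2, -0.22 to 0.0893 for Slc38a2, -0.11 to 0.0833 for Eprs, -0.11 to 0.52 for Trib3, -0.17 to 0.0194 for Atf5 and -0.0224 to 0.71 for Mthfd2. The other 25 members kept their sign in every alternative in which they were computed. Slc7a11 was too dim to be tested under the filter.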
